A study of Mus musculus with 6 samples.

Results

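Metabolite-sensing receptors are G protein-coupled receptors whose ligands are small products of metabolism. The levels of 6 receptor genes of this kind were examined in H22 tumours from control and luteolin-treated mice. They are Hcar2 and Hcar1 for hydroxycarboxylic acids, Gpr84 and Ffar2 for medium-chain and short-chain fatty acids, Ffar4 for long-chain fatty acids and Sucnr1 for succinate. They were taken by gene symbol, and all 6 were among the 21720 symbols of the deposited table. The group was chosen by the measured difference of Hcar2 between these same libraries, so the luteolin and control values of the 6 receptors are a description, without a test. H22 is a mouse hepatocellular carcinoma line, and its wild-type cells had been injected under the skin of female BALB/c mice aged 6 to 8 weeks. Control mice received 0.5% carboxymethyl cellulose sodium, and luteolin mice received 200 mg/kg luteolin, a plant flavonoid. Both were gavaged daily with 0.2 mL over 21 days, starting at a tumour volume of about 50 mm3. Each group gave 3 libraries of whole-tumour RNA, numbered as replicates 1 to 3, and values of single libraries are given in that order. The labels do not say which mouse gave which tumour, so the spread between libraries may be partly technical. The tumour is a subcutaneous graft of a single line, and its RNA mixes carcinoma cells with the cells of the host.

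HCAR2 senses the ketone body β-hydroxybutyrate, butyrate and niacin, couples to inhibitory G proteins, and is best known in neutrophils, macrophages, skin immune cells and adipocytes. HCAR1 senses lactate and is known mainly from adipocytes, and SUCNR1 senses succinate released by stressed or activated cells. GPR84 is a receptor for medium-chain fatty acids whose transcript is induced in macrophages and neutrophils by inflammatory stimuli, while FFAR2 is found on neutrophils, adipocytes and gut cells and FFAR4 on adipocytes and macrophages.

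Hcar2 and Hcar1 lie next to each other on mouse chromosome 5 and arose from a common ancestor, so their sequences were compared to see whether reads of one could be counted for the other. The Hcar2 coding sequence encodes 360 residues and that of Hcar1 351. Over 1046 aligned bases, 685 were identical (65.5%), and the longest run of identical bases shared by the transcripts was 18. The stretch around this run is shown because it holds the longest stretch the pair has in common, with the shared bases in capitals and 30 bases on either side (GENCODE M21 transcripts, read 5′ to 3′, bases 716 to 793 of the Hcar2 transcript and 1049 to 1126 of the Hcar1 transcript).
Hcar2: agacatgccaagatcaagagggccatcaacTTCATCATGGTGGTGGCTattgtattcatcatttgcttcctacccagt
Hcar1: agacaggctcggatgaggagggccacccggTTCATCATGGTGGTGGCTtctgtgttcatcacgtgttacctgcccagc
A search of all mouse transcripts found no run of 59 bases or more shared by Hcar2, Hcar1, Sucnr1 or Ffar4 with another gene. Ffar2, on chromosome 7, shared 70 bases with 4930578E11Rik. Gpr84, on chromosome 15, shared 682 bases with Gm49482, an antisense transcript on the opposite strand. No source used here says that strand was used in counting, so reads of Gpr84 and Gm49482 cannot be told apart.

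The values are whole-number estimated counts, which summed to between 61081637 and 80442954 per library. Levels are given as CPM, which are counts scaled to a common library total after TMM normalization. Where a library has 0 counts, up to 3 remain possible, equal to 0.0359 to 0.0490 CPM, or up to 12 counts if a read pair is worth 4 units, and these limits cover counting error only. Luteolin replicate 2 had the largest total and the most genes detected (16767, against 15579 to 16012 in the other libraries), and it stood apart in several results below. The H22 label was checked against genes of hepatocytes and hepatoma. Afp, the fetal liver protein expressed by many hepatomas, had 43.4 to 66.7 CPM in the control libraries and 32.7 to 41.8 in the luteolin libraries. Alb, the gene of albumin, varied from 0.868 to 60.3 CPM among controls and from 26.0 to 133 among luteolin libraries, and Hnf4a, a defining regulator of hepatocytes, had 0 counts in control replicates 1 and 3 and luteolin replicate 3. The list of 11 liver and hepatoma genes, 10 of them in the table, summed to 44.6 to 140 CPM in control and 76.6 to 197 CPM in luteolin libraries, and of its 9 tested genes 0 were up-regulated in edgeR. Only 1, Afp, had an unadjusted p under 0.05. It was lower in all luteolin libraries, at -0.58 on the log2 scale (SE 0.21), with an adjusted p of 0.187 in edgeR.

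Hcar2 had the highest level per exon length of the 6 receptors in every library. It had 8.26, 9.34 and 9.68 CPM in the control libraries and 65.7, 56.4 and 49.1 CPM in the luteolin libraries. The groups were far apart and each was narrow, with a highest library 1.17 times the lowest in the control group and 1.34 times the lowest in the luteolin group. The level was 9.09 ± 0.743 CPM without and 57.1 ± 8.29 CPM with luteolin (mean ± SD, n = 3 per group). In edgeR's model the luteolin level was 6.28-fold the control level, a log2 fold change of 2.65 with a standard error of 0.19, and leaving out each library in turn kept it between 2.54 and 2.71.

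**Figure D1:**
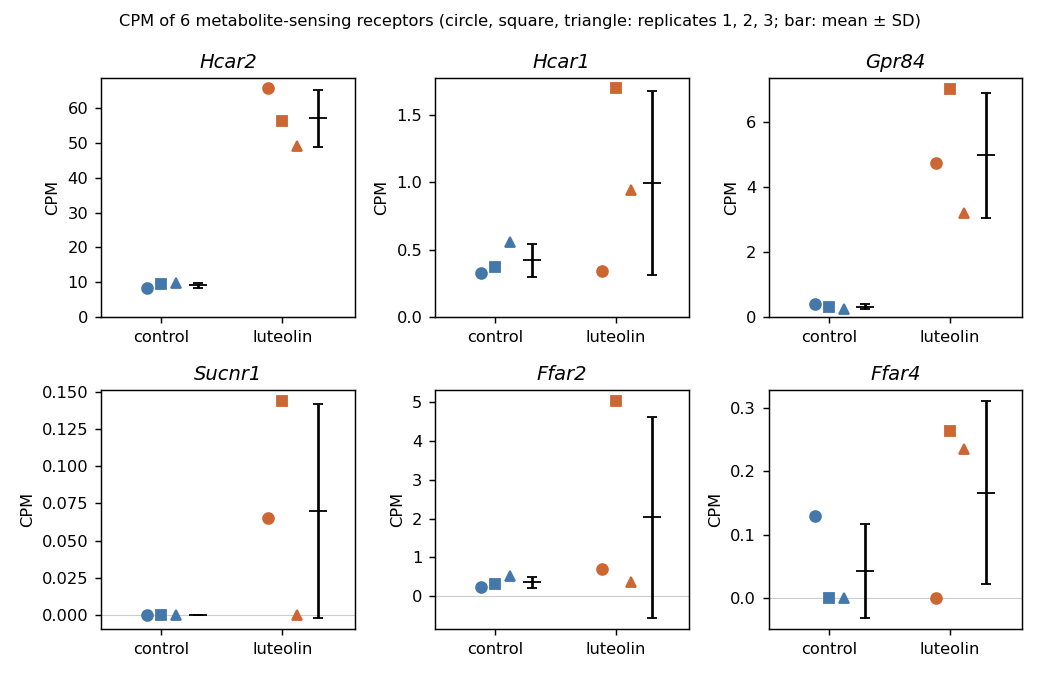
Level of each of the 6 receptors in CPM (vertical axis, a different range in each panel) in the control and luteolin libraries. Circles, squares and triangles are replicates 1, 2 and 3, and the bar beside them is the mean ± SD of 3 libraries. The luteolin libraries lie above all control libraries for Hcar2 and Gpr84, while the groups overlap for Hcar1, Sucnr1, Ffar2 and Ffar4.

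Gpr84 had 0.401, 0.309 and 0.248 CPM in the control libraries and 4.73, 7.0 and 3.19 CPM in the luteolin libraries. These control levels rest on 16 to 28 counts and the luteolin levels on 204 to 585 counts. The receptor was therefore barely detected in the control tumours and clearly detected in all luteolin tumours, without overlap. The means were 0.319 ± 0.0768 CPM and 4.98 ± 1.92 CPM (SD, n = 3 each). The log2 fold change was 3.95 (standard error 0.50), which is 15.5-fold, ranging from 3.64 to 4.14 when single libraries were omitted. The order of the luteolin libraries differed between the receptors, with replicate 1 highest for Hcar2 and replicate 2 for Gpr84.

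Ffar2 had 0.243, 0.309 and 0.512 CPM in the control libraries and 0.702, 5.03 and 0.360 CPM in the luteolin libraries. Replicate 2 was far above the other luteolin libraries, and luteolin replicate 3 lay below control replicate 3. Its log2 fold change was 2.51 with a standard error of 1.05, and it was 0.60 without luteolin replicate 2.

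Hcar1, the lactate receptor beside Hcar2 on the chromosome, showed no such separation. Its levels were 0.329, 0.371 and 0.558 CPM in the control libraries and 0.343, 1.70 and 0.939 CPM in the luteolin libraries. Luteolin replicate 1 lay within the control range and replicate 2 was again the highest. The log2 fold change of 1.24 had a standard error of 0.71, and it was 0.63 without luteolin replicate 2.

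Ffar4 and Sucnr1 were at or near the limit of detection and did not pass the filter on low counts. Ffar4 had 9, 0 and 0 counts in the control libraries and 0, 22 and 15 counts in the luteolin libraries, so each group held a library at 0. Sucnr1 had 0 counts in all 3 control libraries, and luteolin replicates 1, 2 and 3 had 4, 12 and 0. With a read pair worth 4 units all Sucnr1 values lie at or under the limit, and no fold change is given. A difference in either receptor was not detectable at this depth.

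Of the 6 receptors, 4 passed the filter on low counts. Every luteolin library lay above every control library for 2 of them, Hcar2 and Gpr84, as for 15.9% of all 14963 genes tested, while 12.8% of genes lay below throughout. At the study's threshold for up-regulated genes, an unadjusted p under 0.05 with a fold change over 2, Hcar2, Gpr84 and Ffar2 were counted as higher, where the background was 11.3% of all genes tested. At an adjusted p under 0.05 the 2 genes Hcar2 and Gpr84 were counted, against 1.34% of all genes. Since the receptors were chosen with this comparison known, nothing is read from these counts.

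Levels of different genes were compared per length of their exons (CPM per kilobase, exonic lengths of 1401 to 3285 bases from GENCODE M21). In the luteolin group the order was Hcar2 with 29.6 ± 4.30, Gpr84 with 2.88 ± 1.11, Ffar2 with 0.727 ± 0.932, Hcar1 with 0.303 ± 0.207, Ffar4 with 0.118 ± 0.103 and Sucnr1 with 0.0425 ± 0.0438 (SD, n = 3 each). Hcar2 and Gpr84 did not overlap with each other or with the remaining receptors, and from Ffar2 downwards each receptor's range overlapped with that of the next. In the control group Hcar2 was again first with 4.71 ± 0.385, and Gpr84, Hcar1 and Ffar2, at 0.185 ± 0.0445, 0.128 ± 0.0372 and 0.127 ± 0.0502, overlapped in range. Ffar4 followed with 0.0306 ± 0.0531, within reach of Ffar2, and Sucnr1 had 0 counts. Among 14635 tested genes with a known length, Hcar2 ranked 7820th by its mean per kilobase in the control group and 1691st in the luteolin group, and Gpr84 ranked 12944th and 9533rd.

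Whole-tumour RNA cannot tell more cells of a type from more RNA per cell, so the receptors were set beside marker genes of the cells known to express them. Ptprc, the gene of the leukocyte protein CD45, had 46.1, 56.6 and 80.6 CPM in the control libraries and 126, 148 and 134 CPM in the luteolin libraries. It was chosen as a common leukocyte measure after values had been seen, and it differed by 1.16 on the log2 scale (SE 0.23), with an adjusted p of 0.0638 in edgeR. A neutrophil list of 14 genes had a summed level of 49.5 to 56.2 CPM in the control libraries and 144 to 250 CPM in the luteolin libraries. Of its 11 tested genes, 7 were up-regulated at the study's threshold (63.6%, beside 11.3% of all genes). Csf3r and Mmp9 had the highest CPM, with control means of 14.3 and 29.8 CPM and luteolin means of 67.9 and 51.8 CPM, of which Csf3r passed that threshold and Mmp9 did not. S100a8 and S100a9, calcium-binding proteins abundant in neutrophils, were the 2 genes of the list with an adjusted p under 0.05 (0.0331 for each in edgeR), and they were higher by 4.44 and 4.70 on the log2 scale. Ly6g, a defining marker of mouse neutrophils, had 0.186 to 0.556 CPM in the control libraries and 0 to 0.516 in the luteolin libraries. Camp and Ngp, granule proteins, had 0 counts in all control libraries and 100 and 544 counts in luteolin replicate 3, with at most 7 and 4 in the other luteolin libraries. These 5 genes were named after their values had been seen. A macrophage list of 12 genes summed to 2040 to 2310 CPM in the control libraries and 2720 to 3810 CPM in the luteolin libraries. Of the 12, 3 were up-regulated (25.0%, beside 11.3% of all genes). In all luteolin libraries 6 of the 12 lay above every control library, beside 15.9% of all genes. Lyz2 and C1qa led the list, with control means of 1050 and 212 CPM and luteolin means of 1230 and 368 CPM, and both overlapped between the groups. Cd68, named after its value had been seen, was higher by 1.16 on the log2 scale, with an adjusted p of 0.0331 in edgeR. A T-cell list of 9 genes, 8 of them in the table, summed to 14.4 to 17.0 CPM in the control libraries and 50.5 to 95.4 CPM in the luteolin libraries. All 8 tested genes were up-regulated, beside 11.3% of all genes, among them Cd4 and Lck, which had the highest CPM. Cd8a was the gene of this list with an adjusted p under 0.05 (0.0331 in edgeR), and it was higher by 2.51 on the log2 scale.

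**Figure D2:**
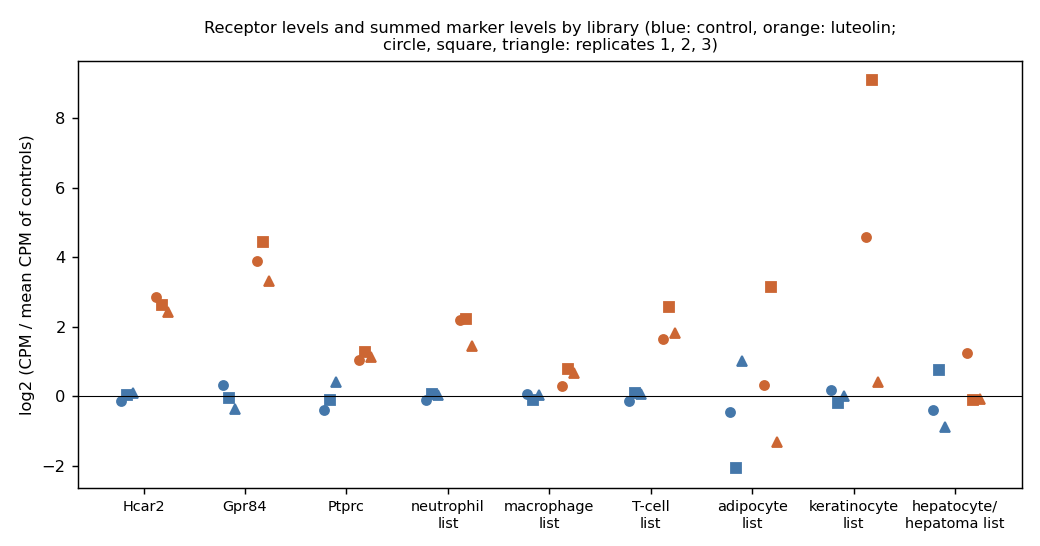
Level in each library on the log2 scale relative to the mean of the 3 control libraries, for Hcar2, Gpr84, Ptprc and the summed CPM of 6 marker lists. Blue symbols are control and orange symbols luteolin libraries, with circles, squares and triangles for replicates 1, 2 and 3. Hcar2 and Gpr84 are raised in all 3 luteolin libraries, as are the leukocyte measures by smaller amounts, while the keratinocyte and adipocyte sums are led by luteolin replicate 2.

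Within each library, Hcar2 CPM was also expressed as a percentage of these marker levels, as a description that adds no test. Relative to Ptprc it was 17.9%, 16.5% and 12% for the control libraries, while the luteolin libraries had 52.2%, 38.1% and 36.6%, so that the mean ratio was 2.73 times that of the control group. Relative to the macrophage sum the mean was 0.414 ± 0.0517% without and 1.77 ± 0.564% with luteolin, which is 4.27 times. Relative to the neutrophil sum it was 17.0 ± 0.663% without and 27.9 ± 5.84% with luteolin, 1.64 times (SD, n = 3 each). Relative to the T-cell sum it was 1.61 times that of the control group, and luteolin replicate 2 exceeded the controls by little (59.2% against 55.1% to 58.2%). Gpr84 relative to Ptprc was 6.31 times the control ratio, relative to the macrophage sum 10.4 times, relative to the neutrophil sum 3.83 times and relative to the T-cell sum 3.66 times. For these 8 ratios the luteolin libraries lay above the control libraries without overlap. A sum is led by its most abundant genes. In the neutrophil list S100a8 and S100a9 differed by more than Hcar2 (4.44 and 4.70 against 2.65 on the log2 scale). Csf3r and Mmp9, which had the highest CPM of that list, differed by less (2.25 and 0.80). The neutrophil ratios therefore hold for the sum and not for each of its genes. Relative to the adipocyte and keratinocyte sums, which varied widely between libraries, the groups overlapped for both receptors, with mean ratios of 3.26 and 1.45 times the control for Hcar2 and 6.32 and 2.75 times for Gpr84. The keratinocyte mean ratios rest on luteolin replicate 3. Hcar2 was 16.5%, 0.624% and 226% of that sum in the luteolin libraries, against 44.4% to 64.9% in the controls. Gpr84 was 1.19%, 0.0774% and 14.7%, against 1.5% to 2.15%. Luteolin replicates 1 and 2 thus lay below every control.

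**Figure D3:**
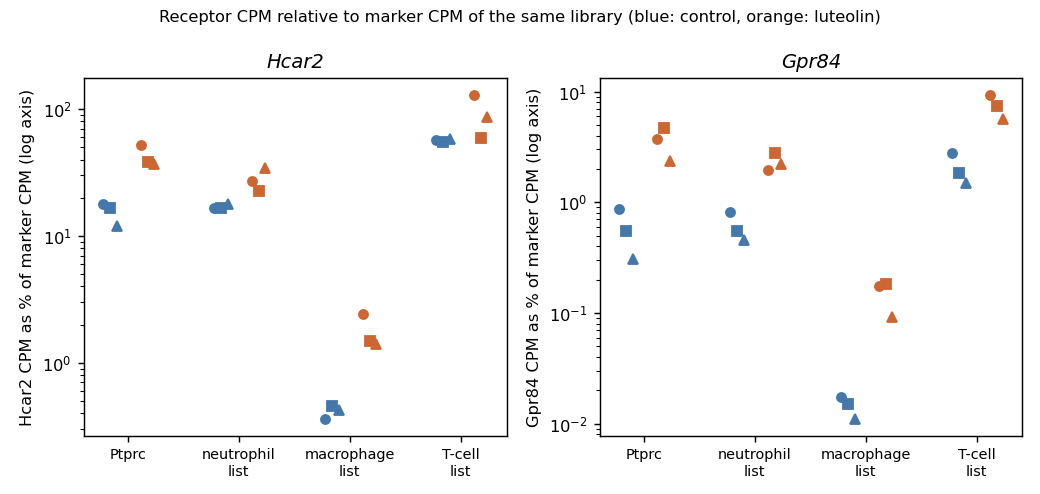
CPM of Hcar2 (left) and Gpr84 (right) as a percentage of the CPM of Ptprc or of 3 summed marker lists in the same library, on a logarithmic axis. Blue symbols are control and orange symbols luteolin libraries, with circles, squares and triangles for replicates 1, 2 and 3. The groups do not overlap in any of the 8 comparisons, and among these they lie closest for Hcar2 relative to the T-cell and neutrophil sums.

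Markers of adipocytes and of skin were examined because Hcar1, Hcar2, Ffar2 and Ffar4 are also known from fat and skin. The adipocyte list summed to 31.8, 10.4 and 89.4 CPM in the control libraries and to 54.4, 391 and 17.7 CPM in the luteolin libraries. None of its 10 tested genes was up-regulated at the study's threshold in edgeR (0 at an unadjusted p under 0.05), and Cfd and Car3 had the highest CPM. Gpr84, Ffar2 and Hcar1 were also highest in luteolin replicate 2, while Hcar2 was lower there than in luteolin replicate 1. In luteolin replicate 3 the adipocyte sum was below 2 of the 3 control libraries and Hcar2 was 49.1 CPM. The keratinocyte list, led by Krt14 and Krt10, summed to 14.4 to 18.6 CPM in the control libraries and to 398, 9040 and 21.7 CPM in the luteolin libraries. Of its 10 tested genes, 9 were up-regulated, beside 11.3% of all genes. Krt14 and 6 further genes of the 11 had 0 counts in every control library. The luteolin level of Hcar2 ranged from 49.1 CPM in replicate 3 to 65.7 CPM in replicate 1, where the keratinocyte sum was 398 CPM. Its log2 fold change was 2.68 without luteolin replicate 2. The part of the skin and fat signal in Hcar2, Gpr84, Ffar2 and Hcar1 was not tested.

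Genes with a profile like that of Hcar2 over the 6 libraries were sought next. Likeness was the root mean square difference of log2 CPM after each gene was centred on its own mean. A small value means a similar size of change in log2 CPM, while the order of the libraries within a group need not be shared. The prior count of 2 makes changes from 0 counts smaller there than in edgeR's model. The 5 nearest genes were Fcer1a, a chain of the high-affinity IgE receptor, Il1rl1, the receptor of interleukin-33, Adm, the precursor of adrenomedullin, Cd8a, a chain of the CD8 coreceptor, and Prr5l. Their differences from Hcar2 were 0.23, 0.24, 0.25, 0.26 and 0.26 on the log2 scale, where the median over all tested genes was 1.39. Their log2 fold changes were 2.23 to 2.68, beside 2.65 for Hcar2. Since Hcar2 was chosen on that difference, their nearness is a description only. Fcer1a had 0.129, 0.185 and 0.248 CPM in the control libraries and 1.11, 1.04 and 1.0 CPM in the luteolin libraries, so its likeness rests on few counts. Il1rl1 had 1.49, 1.08 and 1.26 CPM in the control libraries and 10.7, 6.59 and 7.18 CPM in the luteolin libraries. Adm had 2.45, 3.74 and 2.64 CPM and 18.8, 12.5 and 14.9 CPM in the same order. Gpr84 was 0.69 away from Hcar2 and held place 490 among the tested genes.

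Around Gpr84 the nearest genes were Grik3, Nxph3, Ccl4, Nrn1 and Gm8369, with differences of 0.27, 0.30, 0.34, 0.36 and 0.38 on the log2 scale against a median of 1.97. Grik3, Nxph3 and Gm8369 were at 0 in all control libraries and at or below 0.826 CPM in the luteolin libraries, so their likeness rests on few counts. Their log2 fold changes in edgeR's model were 8.12, 7.28 and 7.17, beside 3.95 for Gpr84. Those of Ccl4 and Nrn1 were 3.41 and 4.07. Ccl4, a chemokine of activated leukocytes, had 1.5, 1.81 and 0.899 CPM in the control libraries and 17.2, 19.2 and 8.42 CPM in the luteolin libraries.

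From a list written with earlier results of these data known, a further 22 receptors for metabolites, bile acids, nucleosides and lipid mediators were described. Of these, 16 passed the filter on low counts and 5 were up-regulated at the study's threshold, which is 31.2% of those tested beside 11.3% of all genes. None was down-regulated, against 1.52% of all genes. The median log2 fold change of the 16 was 1.32, and over all tested genes it was -0.01. Among the 5 were Gpr183, a receptor for oxysterols that guides immune cells, Gpr18, found on lymphocytes, Gpr132, a lipid receptor of macrophages and lymphocytes, and the lipid receptor Gpr55. Gpr132 and Gpr55 were named after their values had been seen.

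Gpr183 had 2.09 ± 0.570 CPM without and 6.78 ± 1.14 CPM with luteolin (mean ± SD, n = 3 per group), which is 1.69 on the log2 scale with a standard error of 0.36. Gpr18 had a log2 fold change of 1.78 with a standard error of 0.43. For Gpr183 and Gpr18 the adjusted p values were 0.0746 and 0.0957 in edgeR. At an adjusted p under 0.05 the count in edgeR was 0 of 16, with 6 at an unadjusted p under 0.05, while DESeq2 counted 5 and limma's voom with sample weights 7. Over the whole table these methods counted 200 of 14963, 1543 of 17790 and 1886 of 14963 genes higher at the adjusted threshold. In edgeR 3061 of 14963 genes had an unadjusted p under 0.05, in either direction. The 5 receptors up-regulated at the study's threshold were all highest in luteolin replicate 2, and without that library the same 5 were up-regulated. Of the closest relatives of Ffar2, Ffar1 had a log2 fold change of -0.01 with a standard error of 1.22 and Ffar3 did not pass the filter.

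**Figure D4:**
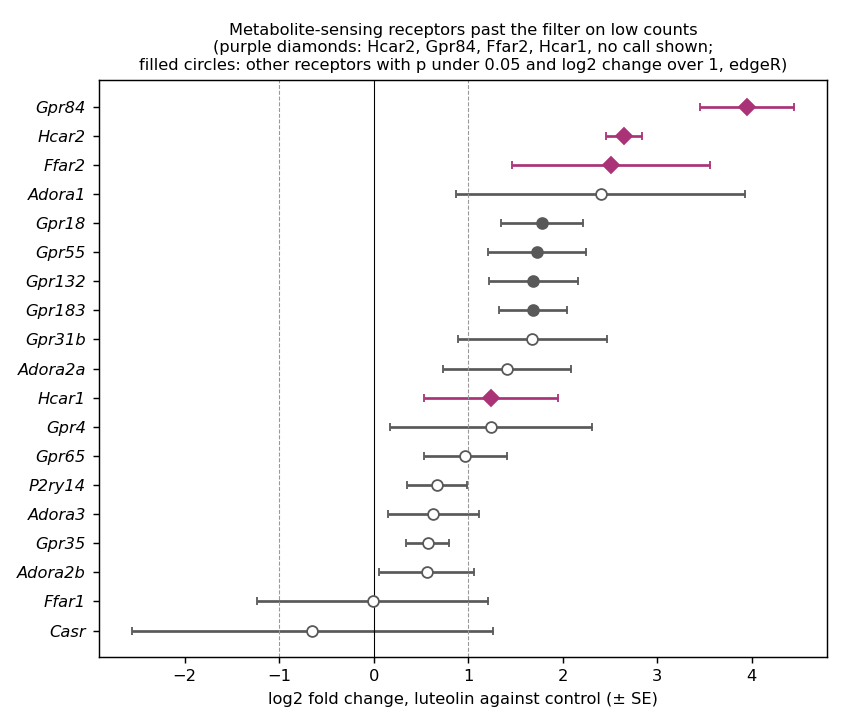
Log2 fold change of luteolin against control (horizontal axis, ± standard error) for the metabolite-sensing receptors that passed the filter on low counts. Purple diamonds are Hcar2, Gpr84, Ffar2 and Hcar1, and circles are 15 of the other receptors, filled where p was under 0.05 and the log2 change over 1 in edgeR. Gpr84 and Hcar2 have the largest values, at 3.95 and 2.65, and 4 circles between 1.69 and 1.78 are filled.

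Enzymes and transporters that make, move or consume the ligands of the receptors were listed as a group of 33 genes, of which 31 were tested. At the study's threshold 6 were up-regulated (19.4%, beside 11.3% of all genes) and 0 down-regulated, and the median log2 fold change was 0.16. Of these 6, 5 had their highest value in luteolin replicate 2. Without that library 4 of the 6 remained up-regulated, beside 1139 of 15137 genes. At an unadjusted p under 0.05 in edgeR 6 genes of the list were higher and 5 lower, beside 3061 of 14963 genes in either direction. Acod1 was the gene of this list with an adjusted p under 0.05. It encodes the enzyme that makes itaconate in activated macrophages, an inhibitor of succinate dehydrogenase. Acod1 had 1.83, 5.73 and 4.68 CPM in the control libraries and 78.9, 40.8 and 39.7 CPM in the luteolin libraries, so that the groups were widely separated. It rose by 3.70 on the log2 scale (SE 0.51), and its adjusted p in edgeR was 0.0332, with a range of 2.57e-12 to 0.207 over all alternatives. In edgeR the adjusted p was 0.143, 0.207, 0.159 and 0.124 without control replicates 1, 2 and 3 and luteolin replicate 1, where 0 of all tested genes passed.

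Fabp5, a fatty acid-binding protein of leukocytes and skin, had 21.3 ± 3.96 CPM without and 196 ± 181 CPM with luteolin (mean ± SD, n = 3 per group). It differed by 3.20 on the log2 scale (SE 0.64) with an adjusted p of 0.0659 in edgeR, and luteolin replicate 2 was far above the others with 406 CPM. Without that library the difference was 2.12 on the log2 scale and passed, with an adjusted p of 0.017 in edgeR, within a range of 7.72e-07 to 0.266 over all alternatives. Fabp5 also passed in DESeq2, in voom, with at least 10 counts in every library and with values divided by 4. Acadm, the dehydrogenase that breaks down medium-chain fatty acids, was lower in all luteolin libraries. It had 169, 196 and 202 CPM in the control libraries and 131, 111 and 124 CPM in the luteolin libraries, or -0.63 on the log2 scale (SE 0.15), with an adjusted p of 0.0857 in edgeR, 0.00541 in DESeq2 and 0.00507 in voom, within a range of 0.00507 to 0.362 over all alternatives. Acadm was 1 of 6 genes of the list that lay below every control library in all luteolin libraries, where 4 lay above throughout, beside 12.8% of all tested genes below and 15.9% above.

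Among genes for the ketone body, lactate and succinate ligands, chosen for mention after their values had been seen, the picture was mixed. Ldha, which makes lactate from pyruvate, had a log2 fold change of -0.22 with a standard error of 0.15, and Ldhb, the other subunit of the enzyme, 1.88 with a standard error of 0.49. Bdh1, an enzyme of ketone body metabolism, was low, with a control mean of 0.284 CPM and a luteolin mean of 5.12 CPM, and it was highest in luteolin replicate 2. Sdha, a subunit of succinate dehydrogenase, had 409 ± 10.0 CPM without and 286 ± 26.5 CPM with luteolin (mean ± SD, n = 3 per group), or -0.52 on the log2 scale, and its adjusted p in edgeR was 0.106.

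The signalling machinery that the receptors share, 37 genes for G proteins, their effectors and regulators, was tested in full. At the study's threshold 11 of the 37 were up-regulated (29.7%, beside 11.3% of all genes) and 0 down-regulated, with a median log2 fold change of 0.50. This count depended on single libraries. Without control replicates 1, 2 and 3 it was 3, 5 and 5, beside 1331 of 15513, 1302 of 15530 and 1484 of 15501 genes. Without luteolin replicate 2, where 7 of the 11 had their highest value, it was 3, beside 1139 of 15137 genes. At an adjusted p under 0.05 edgeR counted 0, with 16 at an unadjusted p under 0.05, while DESeq2 counted 8 and voom 9. Over the whole table edgeR counted 200 of 14963 genes higher at the adjusted threshold, DESeq2 1543 of 17790 and voom 1886 of 14963. In edgeR 3061 of 14963 genes had an unadjusted p under 0.05, in either direction. Rgs16, Gng2 and Rgs1 had the smallest p values. Rgs16 and Rgs1 encode regulators that switch off inhibitory G proteins, and they differed by 1.09 (SE 0.22) and 1.70 (SE 0.50) on the log2 scale. Rgs16 had 49.7, 52.7 and 40 CPM in the control libraries and 130, 88.3 and 84.7 CPM in the luteolin libraries. Gng2, a G protein subunit, differed by 1.09 (SE 0.30). For Rgs16, Rgs1 and Gng2 the adjusted p values in edgeR were 0.0661, 0.135 and 0.120. Without luteolin replicate 2 that of Rgs1 was 0.0446 in edgeR, within a range of 0.00774 to 0.373 over all alternatives. Gnai2, a main inhibitory G protein of leukocytes, named after its value had been seen, had 270 ± 46.7 CPM without and 294 ± 49.9 CPM with luteolin (mean ± SD, n = 3 per group). Its relatives Gnai1 and Gnai3, also named after their values had been seen, differed by 5.46 (SE 1.91) and -0.23 (SE 0.44) on the log2 scale. Gnai1 had 0.0572, 0 and 0.202 CPM in the control libraries and 1.18, 10.4 and 0.0782 CPM in the luteolin libraries.

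**Figure D5:**
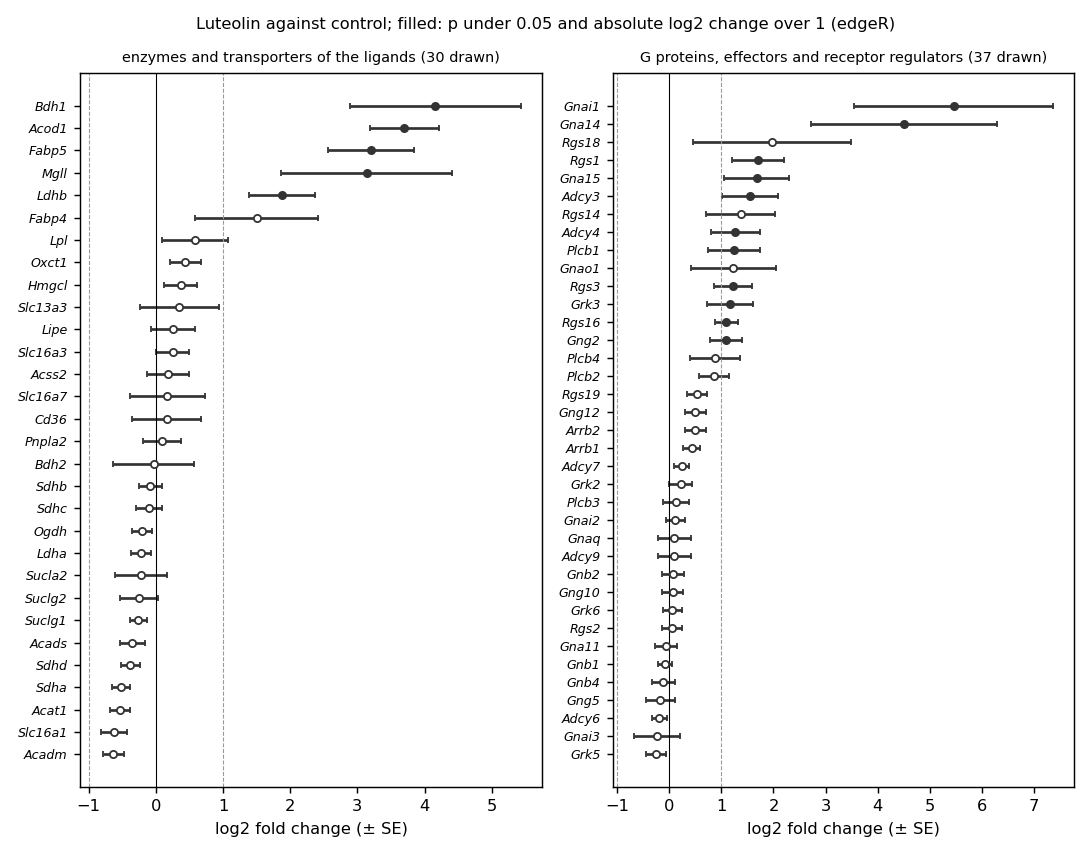
Log2 fold change of luteolin against control (± standard error) for 30 of the tested genes of ligand enzymes and transporters (left) and 37 genes of G protein signalling (right), each sorted by its value. Filled symbols mark p under 0.05 with an absolute log2 change over 1 in edgeR, which are 5 genes on the left and 11 on the right, all of them higher.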

How the data were processed

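RNA-seq of H22 tumours was analysed in 3 control and 3 luteolin (200 mg/kg) libraries. The values deposited are whole numbers for each gene symbol without scaling to a common total, and were treated as estimated counts. The submitters' processing notes name HISAT2, StringTie, DESeq2 and the builds mm39 and rn6, and the annotation is not given in the sources used here. Among low values (1 to 40), 70.3% fell on a multiple of 4 or 1 above it, so 1 unit need not be 1 read pair.

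Counts were compared in R 4.3.3 with edgeR 4.0.16 (TMM, filterByExpr, quasi-likelihood test, two-sided, Benjamini-Hochberg adjustment over 14963 tested genes). Per-library CPM use the TMM-scaled totals, and log2 CPM a prior count of 2. Alternatives were DESeq2 1.42.0, voom with sample quality weights from limma 3.58.1, RLE and upper-quartile normalization, no filter, a minimum of 10 counts, a replicate block, values divided by 4, and leaving out each library. The pipeline was tested on simulated data.

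The receptors and gene lists were chosen with earlier results of these data known. Named genes are the 6 receptors, in each pathway list those with an adjusted p under 0.05 and the 3 with the smallest p, in each marker list the 2 most abundant, and the 5 nearest profiles for Hcar2 and Gpr84. Outside this rule, Ptprc, S100a8, S100a9, Ly6g, Camp, Ngp, Cd68, Hnf4a, Ffar1, Ffar3, Gpr132, Gpr55, Ldha, Ldhb, Bdh1, Sdha, Gnai1, Gnai2 and Gnai3 were named after their values had been seen. Exonic lengths and transcript sequences are from GENCODE M21 (GRCm38), whose build differs from mm39, so no positions are given. Single values of 2 genes counted in the lists are not reported here, in the text or in the figures.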

Additional observations from a re-analysis of the deposited data

How the results depend on the processing

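Hcar2 and Gpr84 kept their direction under every alternative run. The log2 fold change ranged over the libraries left out in turn from 2.54 to 2.71 for Hcar2, from 3.64 to 4.14 for Gpr84, from 0.63 to 1.65 for Hcar1 and from 0.60 to 2.92 for Ffar2, and in voom with sample quality weights it was 0.26 for Hcar1 and 1.06 for Ffar2. With the replicate block Ffar2 was at 1.66. Divided by 4, the values of Hcar1 and Ffar2 did not pass the filter. Sucnr1 and Ffar4 have no values here, since they did not pass the filter. At an adjusted p under 0.05 the genes higher and lower over the whole table, 200 and 28 in edgeR, were 1543 and 415 in DESeq2, 1886 and 1311 in voom, 345 and 47 with at least 10 counts in every library, 327 and 46 with values divided by 4, 34 and 1 with the replicate block, and 0 to 276 and 0 to 36 with a library left out. With 0 genes (without any control library or luteolin replicate 1), 1907 to 2462 genes had an unadjusted p under 0.05. At the study's threshold voom gave 498 genes lower, and leaving out a library 1139 to 2104 higher and 140 to 305 lower.

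Among the other metabolite-sensing receptors, adjusted p counts were 5 in DESeq2, 7 in voom and 0 with any library left out, and voom placed 2 lower at the study's threshold, where 5 to 6 were higher with a library left out. For G protein signalling they were 8 in DESeq2, 9 in voom, 1 with at least 10 counts and 0 to 1 with a library left out. Its up-regulated count was 6 in voom, 7 with the replicate block and 3 to 11 with a library left out. For ligand enzymes the higher counts were 4 in DESeq2, 4 in voom, 2 with at least 10 counts, 2 with values divided by 4, 0 with the replicate block, which took Acod1 to an adjusted p of 0.0851 in edgeR (2.57e-12 to 0.207 over all alternatives), and 0 to 2 with a library left out, and the lower counts were 3 in DESeq2 and 6 in voom. At the study's threshold, 4 to 8 were higher with a library left out. Car3, a marker of adipocytes, had a log2 fold change of 0.86 that ranged, with a library left out, from -0.60 without luteolin replicate 2 to 1.61 without control replicate 3, and was 1.62 in voom. The cause of these shifts was not tested. Same-numbered libraries deviated from their group means with correlations of -0.196 to 0.063, and differently numbered libraries with -0.124 to 0.2. With 3 libraries per group these values cannot show whether the numbers stand for a pairing. The replicate block therefore rests on numbers of unknown meaning. Depth limits Sucnr1 and Ffar4, at 22 counts or fewer.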
